A study of Mus musculus with 4 samples.

Results

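The 8 mouse cystatin genes Cst3, Cst6, Cst7, Cst8, Cst9, Cst11, Cst12 and Cst13 were followed in fetal livers from dams fed a control diet (CD) or a high-fat diet (HFD). They were taken up because of the higher Cst8 signal in the HFD group, so the HFD minus CD values of Cst8 are a description, and nothing is read from where they fall against a cutoff. The members were matched through the transcript of each probe, and these 8 of the 22911 genes named on the array hold 10 of its 56605 non-control probes, with 2 probes each for Cst3 and Cst8. Liver RNA of fetuses at 14.5 days post coitum (dpc) was hybridised to 4 single-colour Agilent arrays, 2 for the CD group and 2 for the HFD group. The dams were C57BL/6J females given the diets during gestation. The CD held 4.3% of energy as fat, 19.2% as protein and 67.3% as carbohydrate, and the HFD held 60% as fat, 20% as protein and 20% as carbohydrate. How many fetuses or dams went into an array is not given in the sources used here, and the series calls the 2 arrays of a diet biological replicates. The labels give the samples as fetal liver, while the study's text also speaks of hepatocytes. In a bulk sample fewer cells of a type and less RNA per cell cannot be told apart.

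Cystatins are secreted or cytosolic proteins of a shared fold, and the classical members block cysteine proteases such as the lysosomal cathepsins. Cst3 (cystatin C) is made in nearly every tissue, Cst6 (cystatin E/M) mainly in skin and other epithelia, and Cst7 (cystatin F, or leukocystatin) in cells of the immune system. Cst8 (CRES) founded a subgroup made mainly in the testis, the epididymis and the gonadotropes of the pituitary gland, and it lacks residues that the classical inhibitors use. Cst9 (testatin) is known from the Sertoli cells of the fetal testis, while Cst11, Cst12 and Cst13 belong to the same reproductive subgroup. All but Cst6 lie on chromosome 2, and the reproductive members form a cluster beside Cst3.

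The sequence just before the start of the gene was matched for 6 of the 8 members (not for Cst6 and Cst11), from RefSeq, build GRCm38.p6. The 250 bases before the start are shown for Cst8 and Cst9, the members whose levels differed most between arrays, and for Cst3, the measured member that differed least. Capitals mark the matches to 5 motifs searched on both strands, namely ACGTG and GCGTG (core sites of hypoxia-inducible factors), TATAAA (the TATA box), TTNNGNAA (C/EBP factors) and CAAGGTCA (Nr5a1, the steroidogenic factor).
Cst8, chr2:148798589-148798838, plus strand: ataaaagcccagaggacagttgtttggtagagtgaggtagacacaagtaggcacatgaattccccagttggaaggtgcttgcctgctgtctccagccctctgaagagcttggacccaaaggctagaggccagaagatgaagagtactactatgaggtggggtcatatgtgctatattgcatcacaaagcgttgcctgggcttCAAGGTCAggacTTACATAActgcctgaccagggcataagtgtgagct
Cst9, chr2:148834897-148835146, plus strand: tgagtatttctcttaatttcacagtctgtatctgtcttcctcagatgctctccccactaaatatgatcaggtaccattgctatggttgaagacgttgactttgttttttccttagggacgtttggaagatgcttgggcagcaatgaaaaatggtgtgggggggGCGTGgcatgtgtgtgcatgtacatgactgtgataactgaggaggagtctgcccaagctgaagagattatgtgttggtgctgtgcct
Cst3, chr2:148875513-148875762, minus strand: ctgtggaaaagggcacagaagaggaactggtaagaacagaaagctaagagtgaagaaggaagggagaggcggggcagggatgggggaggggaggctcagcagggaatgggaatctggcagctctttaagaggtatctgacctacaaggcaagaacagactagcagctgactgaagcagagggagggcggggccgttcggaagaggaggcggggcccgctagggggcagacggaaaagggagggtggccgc
In Cst8, the Nr5a1 letters lay 48 to 41 bases and the C/EBP letters, on the opposite strand, 36 to 29 bases before the start, and the matches did not overlap. The Nr5a1 letters were found in 1.33% and the C/EBP letters in 36.8% of the 32851 promoters of this length. Cst9 held GCGTG, found in 28.2% of promoters, and Cst3 held 0 matches. A match is a description of the letters only. The remaining matches were C/EBP letters in Cst7 and Cst12 and TATAAA in Cst13.

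The deposited intensities were background-subtracted and not scaled between arrays, with medians between 70.2 and 120.5. Each probe was therefore given a level, its log2 intensity with the array's 75th percentile subtracted, and was also read by the flag of the image analysis for a signal well above background, which 65.4% to 70.0% of spots carried. All 8 hepatoblast markers, Alb and Afp among them, carried this flag on every array. The labels give female for every sample, but the sex-linked transcripts did not match this on either array numbered 1, and the labels do not say whether the dam or the fetus is meant. Ddx3y, Eif2s3y, Kdm5d and Uty, all of the Y chromosome, were well above background on CD replicate 1 and HFD replicate 1 only, where the levels of Eif2s3y were 1.45 and 1.84, against -6.74 and -6.32 on the arrays numbered 2. Xist, which is made from the inactive X chromosome, had levels of -0.65 and -0.74 on the arrays numbered 2 and was not well above background on the arrays numbered 1. Each diet thus had an array of either kind. For this reason the differences between arrays of the same number are given beside the difference between the groups. Across the tested probes, CD replicate 1 minus CD replicate 2 had an SD of 0.58 and HFD replicate 1 minus HFD replicate 2 an SD of 0.34, and the number of arrays limits the precision. Below, paired values are in the order replicate 1, replicate 2.

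Of the 8 genes, Cst3, Cst6, Cst7, Cst8 and Cst9 had signal well above background on all 4 arrays, and Cst11, Cst12 and Cst13 on none. Of all 56605 probes, the share with a signal well above background was 61.9% on all 4 arrays, and 29.4% had it on none. The 7 probes of the first 5 genes passed the filters on dim and variable probes, and the 3 probes of the others were left out because they lay under the 20th percentile on an array. Of the 7 tested probes, 2 were higher with HFD by the cutoffs used here (an unadjusted limma p of 0.05 and a 2-fold change), both of them Cst8, and 0 were lower. By the methods' t-test 0 of the 7 passed. Over all 41332 tested probes these cutoffs called 0.293% as higher, 0.477% as lower and 0.769% in all, and since Cst8 was picked on this difference nothing is read from its count. With limma's p adjusted by Benjamini-Hochberg for the 41332 probes, 0 of them passed 0.05, while 1383 (3.35%) had an unadjusted p under 0.05. The adjusted p of each tested probe of Cst3, Cst6, Cst7 and Cst9 was 1.00. With 2 arrays in each group, the smallest p of an exact permutation test is 0.333.

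**Figure D1:**
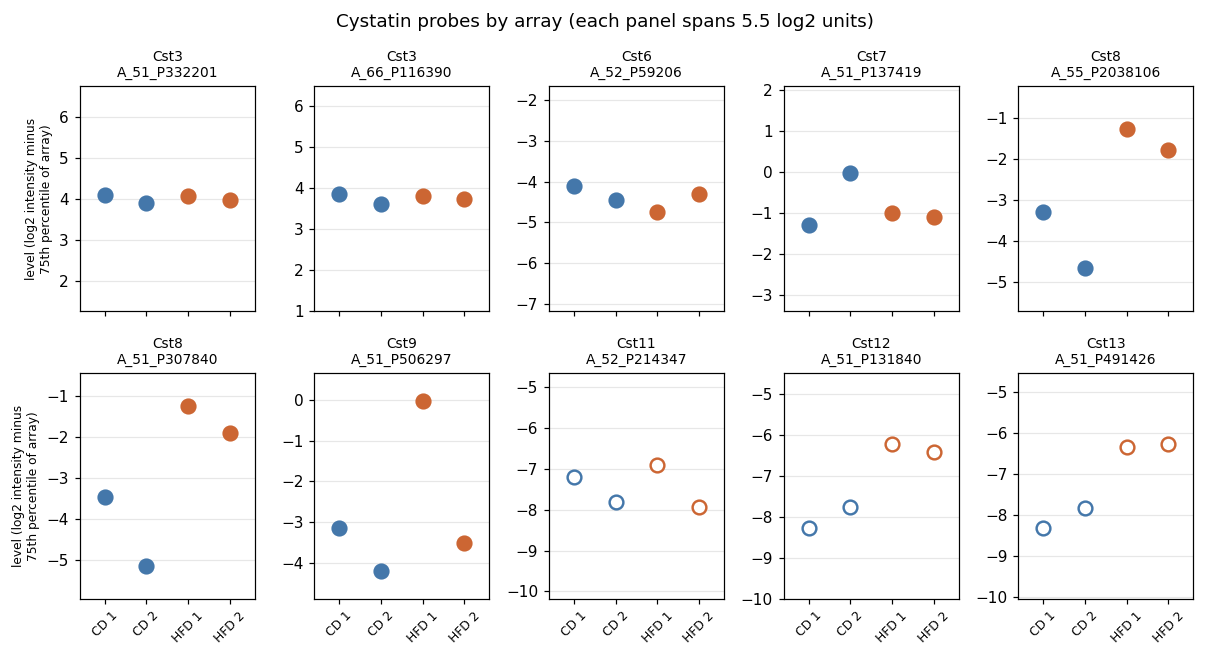
Level of each cystatin probe (log2 intensity with the array's 75th percentile subtracted) on the CD arrays (blue) and the HFD arrays (orange), where filled points were well above background, open points were not, and every panel spans the same range. Cst8 lies higher on both HFD arrays by both probes, Cst9 stands out on HFD replicate 1 at -0.04, Cst3 is level across arrays, and the open points of Cst11, Cst12 and Cst13 have no order above background.

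Cst8 was measured by 2 probes. On probe A_51_P307840 the intensities were 98.1 and 19.9 for CD and 410.1 and 244.2 for HFD, which are levels of -3.45 and -5.14 against -1.24 and -1.90. On probe A_55_P2038106 the intensities were 109.5 and 27.7 for CD and 398.4 and 262.8 for HFD, or levels of -3.29 and -4.67 against -1.28 and -1.79. Both probes were lowest on CD replicate 2 and highest on HFD replicate 1, and the groups did not overlap. Both HFD arrays lay above both CD arrays for 19.5% of all tested probes. After centring, the probes differed by at most 0.30 on any array. The log2 difference, HFD minus CD, was 2.73 (standard error 0.62, n = 2 per group) for A_51_P307840 and 2.44 (standard error 0.51, n = 2 per group) for A_55_P2038106, that is 6.63-fold and 5.44-fold.

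The size of the Cst8 difference was not shared evenly between the arrays. CD replicate 1 exceeded CD replicate 2 by 1.69 and 1.38 on the log2 scale, and 1.03% and 2.37% of tested probes differed as much in that direction. HFD replicate 1 exceeded HFD replicate 2 by 0.65 and 0.51. Between the arrays numbered 1, which carried Y-linked transcripts, the HFD array was 4.63-fold and 4.03-fold above the CD array. Between the arrays numbered 2 it was 9.49-fold and 7.35-fold above. Without CD replicate 2 the log2 differences were 1.88 and 1.76, and without CD replicate 1 they were 3.57 and 3.13.

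Cst9, the testatin gene, had an intensity of 945.4 on HFD replicate 1. Its intensities were 121.1 and 38.7 on the CD arrays and 79.6 on HFD replicate 2. The levels were -3.15 and -4.19 for CD and -0.04 and -3.51 for HFD, so that HFD replicate 1 stood above the other arrays and HFD replicate 2 lay between the CD arrays. The log2 difference between the groups was 1.89 (standard error 1.22, n = 2 per group, limma adjusted p = 1.00), with a 95% interval from -1.34 to 5.12, and the groups overlapped. HFD replicate 1 exceeded HFD replicate 2 by 3.48 on the log2 scale. In that direction 4 of the 41332 tested probes, Cst9 included, differed as much. Probes left out by the filters could differ more, as Defb19 (3.54) and Eif2s3y (8.16) did, so this count covers the tested probes alone. Between the arrays with Y-linked transcripts Cst9 was 8.64-fold higher on the HFD array, and between the arrays numbered 2 it was 1.59-fold higher. Without HFD replicate 1 the log2 difference was 0.15 and without HFD replicate 2 it was 3.63. The probe passed both cutoffs at the latter value, but with 1 HFD array left, that array was assumed to vary like the CD arrays. With the replicate number, and so the sex-linked transcripts, as a block in limma, the difference of 1.89 also passed both cutoffs (unadjusted p = 0.00282). Its standard error there was 0.48, which limma draws toward the spread of all tested probes. The log2 differences by number behind it, 3.11 and 0.67, were far apart, so nothing is read from this p. Cst8 and Cst9 thus shared the lowest array, CD replicate 2, and the highest, HFD replicate 1, but Cst8 remained high on HFD replicate 2 and Cst9 did not.

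Cst11, Cst12 and Cst13, the other reproductive members, were at the dim end of the array. The intensities of Cst12 were 3.44 and 3.24 for CD and 13.0 and 10.5 for HFD. Those of Cst13 were 3.36 and 3.07 for CD and 11.96 and 11.7 for HFD. For both genes the HFD arrays lay above the CD arrays, as they did for 6.69% of the probes that were well above background on no array. Since no array measured them above background, no fold is given. Cst11, known from the epididymis, had CD intensities of 7.25 and 3.15 and HFD intensities of 8.02 and 3.72, and its groups overlapped.

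Cst3, the broadly made inhibitor of cathepsins, had CD intensities of 18511 and 10621 and HFD intensities of 16351 and 14303 by probe A_51_P332201. Scaled to the arrays these were levels of 4.11 and 3.91 against 4.08 and 3.98, and by probe A_66_P116390 they were 3.85 and 3.62 against 3.79 and 3.74. The HFD arrays lay between the CD arrays by both probes. The log2 differences were 0.01 (standard error 0.17) and 0.03 (standard error 0.18), and their 95% intervals ran from -0.45 to 0.47 and from -0.44 to 0.50. The sign turned with the scaling, to -0.07 and -0.05 under quantile normalization, so no direction is given.

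Cst6 had CD levels of -4.10 and -4.46 and HFD levels of -4.74 and -4.31, and the groups overlapped. The log2 difference was -0.25 (standard error 0.24, n = 2 per group, limma adjusted p = 1.00). The Cst6 level was lower by 0.64 on the HFD array of number 1 and higher by 0.15 on that of number 2. The keratinocyte markers Krt5, Krt14, Krt10, Trp63 and Tgm3 were above background on every array, and the sum of the list in units of the 75th percentile was 14.7 and 9.83 for CD and 11.5 and 8.27 for HFD. Their part in the Cst6 values was not tested.

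Cst7, the cystatin of immune cells, had CD levels of -1.28 and -0.02 and HFD levels of -1.004 and -1.09. CD replicate 2 stood above the other 3 arrays. The log2 difference between the groups was -0.39 (standard error 0.45, n = 2 per group, limma adjusted p = 1.00). It became -1.02 without CD replicate 1, at which the probe passed both cutoffs with the lone CD array assumed to vary like the HFD arrays, and 0.24 without CD replicate 2. CD replicate 2 exceeded CD replicate 1 in Cst7 by 1.26 on the log2 scale, and 0.861% of tested probes differed as much in that direction. Blood cell markers were also high on that array. Of 6 tested markers of granulocytes and mast cells, 5 were highest on CD replicate 2, as were 5 of 7 macrophage markers, and Prtn3, a protease of granulocyte precursors, had CD levels of 0.46 and 1.52 and HFD levels of 0.60 and 0.39. The summed signal of the granulocyte and mast cell list was 77.3 and 118.2 for CD and 91.6 and 88.4 for HFD, and that of the macrophage list was 28.0 and 35.9 for CD and 31.8 and 30.9 for HFD. Of 7 tested markers of natural killer, T and dendritic cells, 3 were highest on CD replicate 2. So were 5 of the 8 hepatoblast markers and 4 of 6 erythroid markers. The part of these cells in the Cst7 values was not tested.

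**Figure D2:**
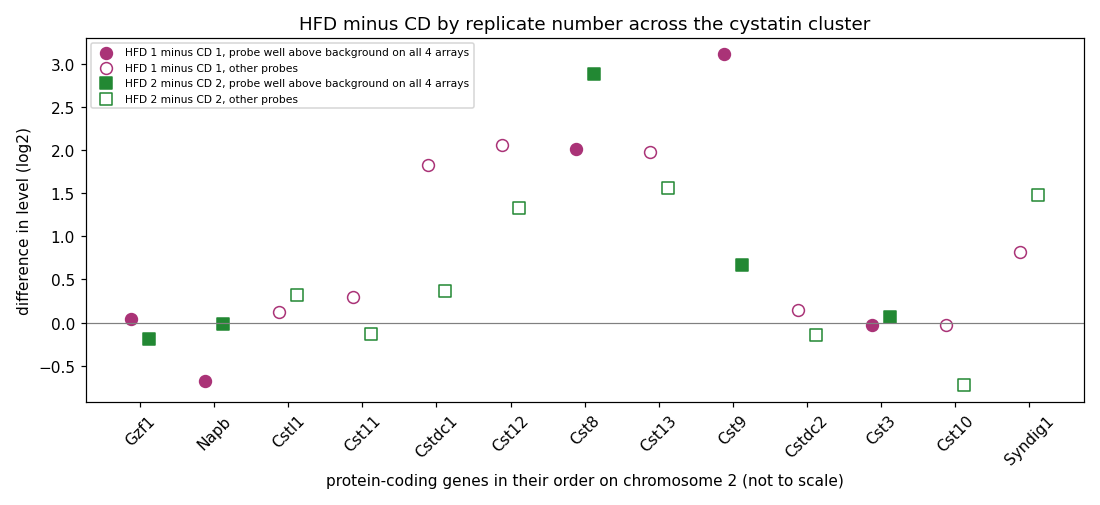
Difference in level (log2) between the HFD and the CD array of the same replicate number, for 13 neighbouring genes in their order on chromosome 2, with circles for number 1, squares for number 2, and filled marks for probes well above background on all 4 arrays. The cystatins from Cstdc1 to Cst9 lie above 0 for both numbers, Cst8 at 2.01 and 2.88 and Cst9 at 3.11 and 0.67, and so does Syndig1 at the end of the row, while Gzf1, Cst3 and Cstdc2 lie near 0. Open marks were not well above background on all 4 arrays. Cst12, Cst13, Cstdc2 and Syndig1 were so on no array and Cstdc1 on HFD replicate 1 only, so the heights of these marks rest on background values.

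The genes next to Cst8 in the cluster were read in their order on the chromosome. Cst8 lies between Cst12 and Cst13, followed by Cst9. Cstdc1, another cystatin gene of the cluster, was well above background on HFD replicate 1 only, by both of its probes. Its intensities were 15.3 and 5.85 for CD and 49.2 and 9.70 for HFD by probe A_55_P2744300, and 3.89, 3.27, 48.2 and 4.85 in the same order by probe A_55_P2000598. Cstdc1 and Cst9 therefore had the same single high array. Cstl1, Cst10 and Cstdc2 were well above background on no array, and Gzf1, outside the cluster, had levels between 0.21 and 0.40 on all arrays.

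Of 15 further genes of the cystatin superfamily, 11 were tested, and 9 of them were higher and 2 lower in the HFD group, and the median log2 difference was 0.09. Over all tested probes the median was 0.03 and 55% were higher. None of the 11 passed both cutoffs. Among those with the highest signal, the fetuin gene Ahsg had CD levels of 7.63 and 8.39 and HFD levels of 8.01 and 7.93, and the kininogen gene Kng1 had CD levels of 6.49 and 6.99 and HFD levels of 6.84 and 6.76. The stefin Cstb, a cytosolic inhibitor, had CD levels of 3.06 and 3.24 and HFD levels of 3.29 and 3.20. The groups overlapped for Ahsg, Kng1 and Cstb.

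The 11 lysosomal cysteine proteases that cystatins act on were all tested, and 10 were higher and 1 lower in the HFD group, and the median log2 difference was 0.12. None passed both cutoffs. Ctsb had CD levels of 6.70 and 7.10 and HFD levels of 6.95 and 7.13, and Ctsl had CD levels of 4.67 and 4.91 and HFD levels of 5.12 and 4.89. Lgmn, the protease legumain, had CD levels of 4.26 and 4.56 and HFD levels of 4.61 and 4.45. The groups overlapped for all 3 of these proteases.

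None of the 8 cathepsins made in the rodent placenta passed the filters on dim and variable probes, nor did Tpbpa and Tpbpb, trophoblast genes listed with them. Cts3 had CD levels of -0.48 and 1.51 and HFD levels of -2.81 and -5.37. Ctsq and Ctsr exceeded background on the CD arrays only and were at least 2.80-fold and 2.29-fold lower in the HFD group, measured against the lowest signal well above background on each HFD array. These 3 genes were highest on CD replicate 2, the array on which Cst8 was lowest.

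The tissues in which Cst8 is known were read through lists of markers. Of 16 epididymis genes, 9 were well above background on no array, among them Lcn5, Lcn8, Crisp1, Gpx5 and Adam7. Of 7 tested, 6 were higher and 1 lower in the HFD group. Their median log2 difference was 0.29, and none passed both cutoffs. Of 4 genes of pituitary gonadotropes, Cga, Fshb and Gnrhr were well above background on no array, and Lhb had CD levels of -1.66 and -1.58 and HFD levels of -1.60 and -1.40. The summed signal of the epididymis list, in units of the 75th percentile, was 1.33 and 1.04 for CD and 1.16 and 1.92 for HFD. The highest level of the list on HFD replicate 2 was that of Cuzd1. It had CD levels of -1.58 and -1.67, HFD levels of -2.66 and -0.34 and a log2 difference of 0.13 (standard error 0.79).

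Genes of steroid-producing cells and of the fetal gonad were measured beside Cst8 and Cst9. Nr5a1, a transcription factor of the gonad and the adrenal cortex, had CD levels of -1.74 and -2.32 and HFD levels of -1.09 and -0.57. Cyp11a1, which starts steroid synthesis, had CD levels of -1.56 and -2.78 and HFD levels of -0.72 and 0.13. Among the 103 tested genes of all 20 lists, Nr5a1 (log2 difference 1.20) and Cyp11a1 (log2 difference 1.87) were the 2 that passed both cutoffs, and 0 of the 103 had a limma adjusted p under 0.05. Without CD replicate 2 neither passed. Both genes were lowest on CD replicate 2, as Cst8 was, but highest on HFD replicate 2, where Cst8 was not. All 5 tested genes of the adrenal cortex were highest on HFD replicate 2, and the summed signal of their list was 11.8 and 13.4 for CD and 13.6 and 31.4 for HFD. For Mrap the HFD arrays nearly tied, at 3.34 and 3.38. Counts of genes highest on an array, here and for the other lists, have no share of all probes beside them. No pattern is read from these counts alone. On HFD replicate 1, Akr1b7 (0.73) lay under both CD arrays (1.71 and 1.57). Cyp21a1 and Mc2r lay between the CD arrays there, and Mrap and Nr5a1 above them. The list of ovarian granulosa cells had no clear direction. Of its 4 tested genes, 3 had lower and 1 had higher means with HFD, and the middle of their log2 differences was -0.17. The differences were -0.31 for Foxl2 (standard error 0.35), -0.31 for Fst (0.21), -0.02 for Irx3 (0.41) and 0.43 for Wnt4 (0.47). Without CD replicate 1 the middle was 0.18. Their highest arrays were CD replicate 1 for 3 genes and CD replicate 2 for 1.

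Markers of Sertoli cells were read beside Cst9. Amh, the hormone of fetal Sertoli cells, was well above background on HFD replicate 1 only, at a level of -5.10, and on the other arrays its level was between -8.20 and -7.70. Defb19, a defensin gene of Sertoli cells, had CD levels of -4.27 and -7.63 and HFD levels of -1.43 and -4.97, with CD replicate 2 not well above background. Ptgds had CD levels of -2.14 and -2.26 and HFD levels of -0.76 and -2.91. Of the 6 tested genes of the list 4 were highest on HFD replicate 1. The others were Sox9, with CD levels of -0.28 and -1.37 and HFD levels of -0.93 and -1.10, and Gata4, with CD levels of 0.28 and 0.62 and HFD levels of 0.58 and 0.23. The summed signal was 6.43 and 4.10 for CD and 8.004 and 5.85 for HFD. Wt1 had the highest level of the list on every array, with CD levels of 1.84 and 0.68 and HFD levels of 2.07 and 1.86. The sum thus weighs Wt1 and Gata4 far more than Amh and Defb19. Of 6 germ cell markers 3 were tested, and all 3 were highest on HFD replicate 1 as well, Ddx4 with levels of -3.72 and -3.89 against -2.72 and -3.33. For Pou5f1 the lead was small, with CD levels of -2.31 and -2.13 and HFD levels of -2.02 and -2.26. Among those not tested, Dppa3 and Mael were highest there too. Sycp3 was highest on HFD replicate 2, at -5.35 against -5.83, and was above background on that array only. The summed signal of the germ cell list was 0.321 and 0.328 for CD and 0.697 and 0.393 for HFD. The part of gonad or adrenal tissue in the values of Cst8 and Cst9 was not tested.

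**Figure D3:**
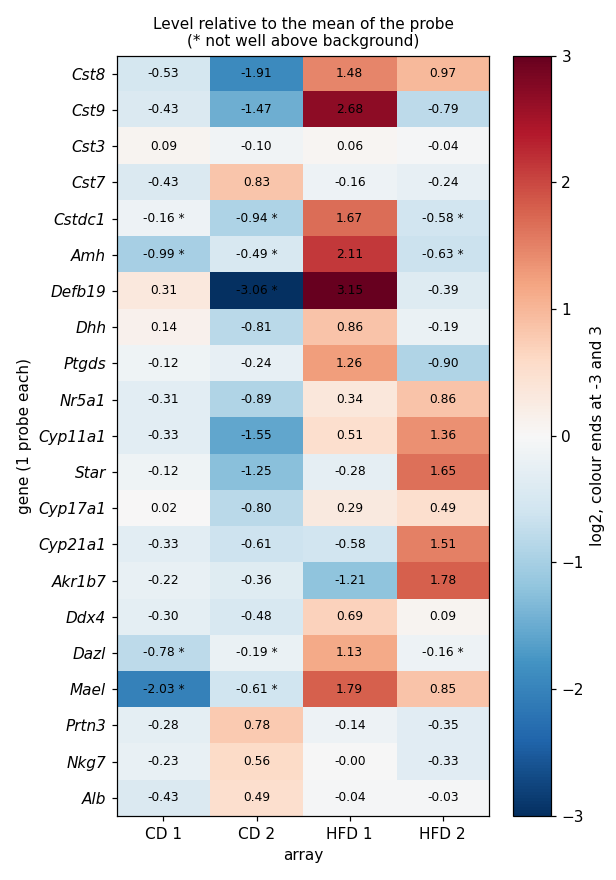
Level of 21 genes on each array relative to the mean of the probe (log2, colour scale ending at -3 and 3), 1 probe per gene, with an asterisk where the probe was not well above background; the genes were picked after their values were seen. Cst9, Cstdc1, Amh and Defb19 are highest on HFD replicate 1, Nr5a1, Cyp11a1, Cyp21a1 and Akr1b7 on HFD replicate 2, and Cst8 is above its mean on both HFD arrays.

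The genes whose pattern was most like that of Cst8 were ranked by the distance between centred levels over the 4 arrays, among 16932 genes well above background on both HFD arrays. The nearest were Akr1cl (distance 0.53), Sprr2f (0.64), Gldn (0.89), Clec18a (1.12) and Fkbp6 (1.19). Akr1cl, an aldo-keto reductase, had CD levels of -3.82 and -5.24 and HFD levels of -2.28 and -2.53, and like Cst8 it was lowest on CD replicate 2. Gldn, Sprr2f and Fkbp6 exceeded background on the HFD arrays only and were at least 2.38-fold, 2.09-fold and 1.68-fold higher in the HFD group. The search asked for such signal on the HFD arrays and not on the CD arrays, so nothing is read from these bounds. Clec18a was not above background on CD replicate 2. Of the 5 distances, only that of Akr1cl therefore rests on values above background throughout, and the order of the others is not settled. The Akr1cl distance is that of its nearest probe, A_66_P119863, with HFD minus CD of 1.54 and 2.71 by replicate number. Its probe A_55_P2486704 gave smaller differences, 0.80 and 1.66. With 4 arrays and 2 groups, genes with a large difference between the groups are alike by construction. The distance from Cst8 to Cst9 was 2.19.

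**Figure D4:**
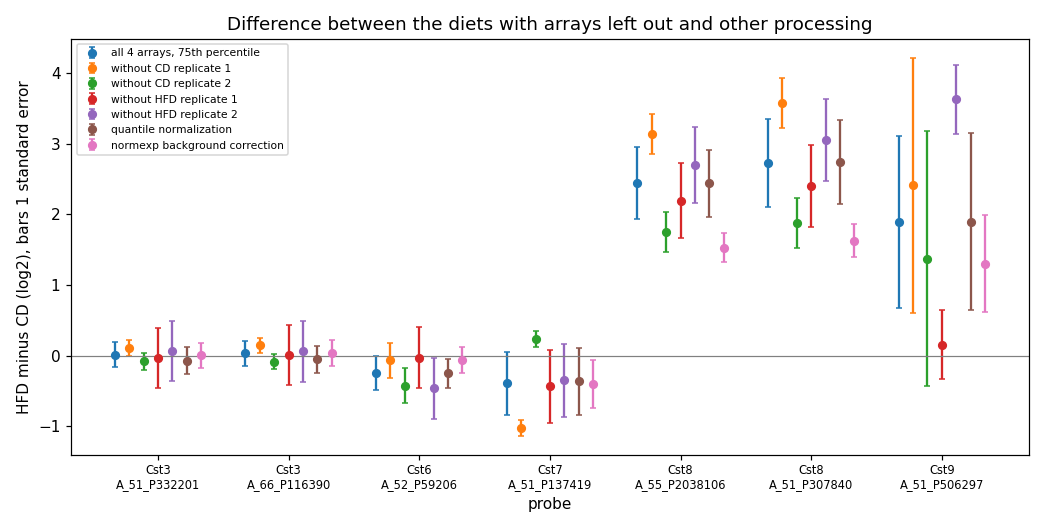
Log2 difference (HFD minus CD) of the 7 tested cystatin probes, with bars of 1 standard error from limma, for all 4 arrays, for each array left out in turn, and for other scaling and background correction. Both Cst8 probes stay above 1.5 under each setting shown, Cst9 moves from 0.15 to 3.63 with the HFD array left out, and Cst7 changes sign without CD replicate 2. Cst8 was picked on this difference, so nothing is read from its staying high.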

How the data were processed

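Fetal liver RNA was measured on 4 Agilent arrays, with the group and number of each from its label. The authors extracted each image with Agilent Feature Extraction 11.0.1.1 and deposited background-subtracted, detrended intensities, median spot and background intensities, and flags, which are scores of 0 or 1. The deposited table of normalized intensity equals the scanner intensity of each array divided by 1 constant, within 0.1% for 100% of probes with 1 spot.

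The log2 intensity was averaged over spots without an outlier flag and centred on the 75th percentile. Transcripts were matched to RefSeq genes of GRCm38.p6, which named 32994 of 56605 probes. Left out were 9 probes with every spot flagged on an array, 14980 probes that fell under the 20th percentile of an array, and 284 probes with a linear coefficient of variation over 50% in both groups. The study's methods take this coefficient of a log scale value, so the filtered set is not the authors'. limma 3.58.1 in R 4.3.3 compared HFD with CD over the other 41332 probes, with Benjamini-Hochberg adjustment, and was tested on simulated data. Tables and plots used pandas 2.3.3, numpy 2.4.6 and matplotlib 3.10.9 under Python 3.11.15. The members and lists were chosen with earlier results of these data known. The named genes were the members, the genes of the lists and the 5 genes nearest to Cst8, and each list used the brightest probe of a gene. The lists were written by hand, and with these filters the medians of all lists with a tested gene lay between -0.43 and 0.79. The filters matter here. With no CV filter 7 trophoblast genes were tested, with a median of -3.80, against 3 genes and -0.23 with it. The germ cell median was 1.26 over 6 genes in the deposited table, against 0.78 over 3 genes here. Alternatives covered scaling, background correction, filters, the methods' t-test, the replicate block and each array left out. With 1 slide and 1 scan for the 4 arrays, no batch could be fitted. Protein sequences were not used here.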

Additional observations from a re-analysis of the deposited data

How the results depend on the processing

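The cutoffs on p and fold called 2 cystatin probes, both of Cst8, with all 4 arrays. The methods' t-test called 0, and 4 were called with no filter on dim probes, where Cst11, Cst12 and Cst13 were let in. With an array left out the count was 2 or 3, with a lone array assumed to vary like the other group. Over all probes the count of 318 became 48 with normexp background correction (offset 50, on the median spot brightness), 845 with no filter on dim probes and 97 by the methods' t-test, and lay between 654 and 1226 with an array left out. Among the genes of the lists, the count of 2 became 6 with normexp, 15 in the deposited table, 7 with no filter on dim probes, 5 with probes well above background on both arrays of a group, 10 with no CV filter and 0 by the methods' t-test, and lay between 0 and 8 with an array left out. The cause was not tested.

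The Cst3 differences were -0.0715 (A_51_P332201) and -0.0526 (A_66_P116390) with quantile normalization. With an array left out they ran from -0.083 to 0.111 and from -0.0848 to 0.149, and A_51_P332201 was at -0.0359 without HFD replicate 1. The Cst7 difference ran from -1.02 without CD replicate 1 to 0.24 without CD replicate 2. Those of Cst8 fell to 1.63 (A_51_P307840) and 1.53 (A_55_P2038106) with normexp and stayed above 0 under each alternative. Cst8 was picked on this difference and its groups did not overlap. Leaving an array out could therefore not turn its sign, and nothing is read from it staying above 0. With the replicate number as a block, 3 cystatin probes and 435 probes in all passed the cutoffs, Cst9 (log2 difference 1.89) beside both of Cst8. For Cst9 the limit on its standard error in the block fit, given with its values above, holds here too. The labels do not say that a number marks a shared litter or day, and the difference between the CD arrays correlated at -0.10 with that between the HFD arrays across probes (arrays of a number also shared their sex-linked transcripts). Slide and scan were not run as a block, with 1 of each.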

Other observations

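Other stefins, cytosolic cystatins of a gene cluster, were outside the lists and were looked up after the results were seen. Cstdc5 had CD levels of 5.28 and 5.83 and HFD levels of 5.65 and 5.55, and Cstdc4 had CD levels of 2.60 and 3.18 and HFD levels of 3.09 and 2.86. Csta2 had CD levels of -0.29 and -0.01 and HFD levels of 0.32 and 0.08. Stfa1, from the list of further cystatins, had CD levels of 5.28 and 5.86 and HFD levels of 5.70 and 5.56. Apart from Csta2, whose HFD arrays lay above its CD arrays (log2 difference 0.35, standard error 0.20, limma adjusted p = 1.00), the groups overlapped for these genes. Of further stefins in the list, Stfa2 (log2 difference 0.29) and Stfa2l1 (0.31) also had both HFD arrays above both CD arrays, and Stfa3 did not. Probes of this cluster can share transcripts of near-identical copies, so that the values of single genes are uncertain.

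The search for similar genes was repeated for Cst9 after its pattern was seen. The nearest genes over the 4 arrays were Dppa5a (distance 1.099) and Nppa (1.12), followed by Pigp (1.45), Gm20736 (1.49) and Pdyn (1.53). The search again took only genes well above background on both HFD arrays, which left out Cstdc1 and Amh. Dppa5a had CD levels of -2.02 and -2.69 and HFD levels of 0.07 and -2.13, so that it too was highest on HFD replicate 1. Nppa had CD levels of -4.43 and -4.41 and HFD levels of -1.81 and -4.58, and was likewise highest there.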
